A study of Mus musculus with 12 samples.

Results

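The 36 genes described here are components of the TGF-beta and BMP signalling pathways, chosen by symbol from the 55421 genes in a count table of mouse ventricles. Gene expression was measured by RNA sequencing of ventricular RNA from wild-type (WT) mice in 3 groups of 4 libraries. The AngII_FI group received angiotensin II from an osmotic minipump together with Forsythoside I (FI), a plant compound given into the peritoneum at 50 mg/kg on alternate days, beginning the day before the pump and ending on day 14. The AngII group was given the same hormone, which constricts vessels and makes the heart hypertrophy, with vehicle, and the saline group received saline with vehicle. No group received FI without angiotensin II, and the age and sex of the mice and the angiotensin II dose do not appear in the labels.

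TGF-beta is secreted bound to its own propeptide, and latent TGF-beta binding proteins (LTBPs) tether that latent complex to microfibrils of the extracellular matrix until it is released. The released ligand joins a type II and a type I receptor, which phosphorylate SMAD transcription factors that enter the nucleus with SMAD4. In the heart the TGF-beta branch is best known for driving fibroblasts to make matrix. The BMP branch uses related receptors and another set of SMADs, and the Id genes are classical targets of it. Inhibitory SMADs, SMURF ubiquitin ligases and the corepressors SKI, SnoN and TGIF restrain signalling.

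Library totals ranged between 68874852 and 80624227 counts over the 12 samples, with 29.1% to 38.8% on genes of the mitochondrial genome. Levels are given as CPM, counts per 1000000 scaled by TMM (trimmed mean of M-values), a factor between 0.948 and 1.075 per library. A count of 3 corresponds to 0.0368 to 0.0454 CPM, a floor that covers counting error only. The library AngII_FI 3 stood apart. It held 24300 CPM on 19 hepatocyte markers, against 3.37 to 63.0 CPM in the other 11 libraries. The 63.0 CPM was in AngII 3, which stays in the refits without AngII_FI 3, and the rest had at most 8.97 CPM. Alb, which encodes serum albumin, had 13500 CPM in AngII_FI 3 and at most 17.9 CPM elsewhere. Called members of the comparisons with FI, and most counts, are therefore given with and without AngII_FI 3. Cardiomyocyte markers summed to 31200 to 44700 CPM in every library, while of 6 atrial markers Sln and Myl7 were at or near 0 in all groups (group means of at most 0.0963 CPM). The 6 summed to 367 to 462 CPM in AngII_FI, 287 to 348 CPM in AngII and 111 to 146 CPM in saline, and Nppa, a natriuretic peptide gene that stressed ventricles also express, made up most of these sums. Of the 36 members 34 passed the filter on low counts, Bmp10 and Grem1 being left out.

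Angiotensin II against saline asks which parts of the pathway change at the RNA level in the ventricle of infused mice. Of the 3 TGF-beta ligand genes 2 rose, as did 3 of the 4 LTBP genes, and no receptor, SMAD, BMP or Id gene passed the threshold. Tgfb3, Tgfb1, Ltbp2, Ltbp3 and Ltbp4 were higher in AngII ventricles by edgeR's quasi-likelihood test at an adjusted p under 0.05, and 0 members were lower. Over all 17376 tested genes 1.57% were called higher and 0.662% lower. The median log2 fold change of the 34 members was 0.15, with 25 above 0, against 0.01 over all tested genes. Separation was complete for 11 members, 9 with every AngII library above saline and 2 with every one below, where 7.36% and 6.11% of all tested genes were separated in these directions.

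Of the ligands, Tgfb3 had 18.1, 16.3, 17.0 and 18.7 CPM in AngII libraries 1 to 4, against 8.66, 11.4, 9.09 and 6.94 CPM in the saline libraries. Its log2 fold change was 0.96 ± 0.14 (SE, edgeR adjusted p = 0.00926). Tgfb1, the isoform most studied in cardiac fibrosis, had 18.5, 20.7, 19.8 and 16.9 CPM in AngII and 12.3, 14.7, 11.6 and 10.0 CPM in saline. The groups of both genes were fully separated. The log2 fold change of Tgfb1 was 0.64 ± 0.14 (edgeR adjusted p = 0.0397). Tgfb2, the third isoform, had 4.94, 7.79, 7.96 and 7.70 CPM in AngII and 2.21, 5.35, 5.35 and 4.74 CPM in saline, so the lowest AngII library lay within the saline range. Its log2 fold change of 0.68 ± 0.25 was as large as that of Tgfb1 but did not pass (edgeR adjusted p = 0.178).

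Of the LTBPs, Ltbp2 had the largest log2 fold change of the 34 members. It had 6.4, 6.39, 5.55 and 5.40 CPM in AngII (377 to 478 counts), against 1.60, 0.946, 1.47 and 1.47 CPM in saline (66 to 107 counts). The lowest AngII library lay well above the highest saline library, and the log2 fold change was 2.11 ± 0.22 (edgeR adjusted p = 8.09e-04). Its protein sits on microfibrils but, unlike the other LTBPs, is not known to bind latent TGF-beta. Ltbp4, an LTBP needed for elastic fibre assembly, had 266, 252, 257 and 253 CPM in AngII and 158, 203, 224 and 164 CPM in saline, a log2 fold change of 0.46 ± 0.10 (edgeR adjusted p = 0.0445). Ltbp3 had 24.9, 25.8, 24.9 and 26.2 CPM in AngII and 16.5, 19.4, 18.5 and 20.9 CPM in saline (0.44 ± 0.09, edgeR adjusted p = 0.0274). Ltbp1 went the other way, with 34.5, 28.1, 32.0 and 32.9 CPM in AngII and 36.4, 35.1, 35.0 and 40.0 CPM in saline. Its groups were separated, yet its log2 fold change of -0.20 ± 0.09 did not pass (edgeR adjusted p = 0.275).

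Part of these calls was lost when 1 library was left out, in some refits a library of the AngII_FI group. Over all genes such refits called 90 to 683, against 388 with all libraries. Of 12 refits, each omitting 1 library, Ltbp2 and Tgfb3 passed in all 12, with log2 fold changes of 1.97 to 2.19 and 0.85 to 1.09. Ltbp3 passed in 6 (0.38 to 0.49), those without saline 4, AngII 1 or any 1 AngII_FI library. Tgfb1 passed in 4 (0.56 to 0.75), those without saline 2, AngII_FI 1, AngII_FI 2 or AngII_FI 3, and Ltbp4 in 2 (0.38 to 0.55), those without saline 3 or AngII_FI 3. Ltbp4 also lost its call with library totals in place of TMM (edgeR adjusted p = 0.0691), with only the compared groups in the fit (0.0532) and with no filter on low counts (0.077), and Tgfb1 with no filter (0.0728). Every sign was kept in these 5 genes.

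**Figure D1:**
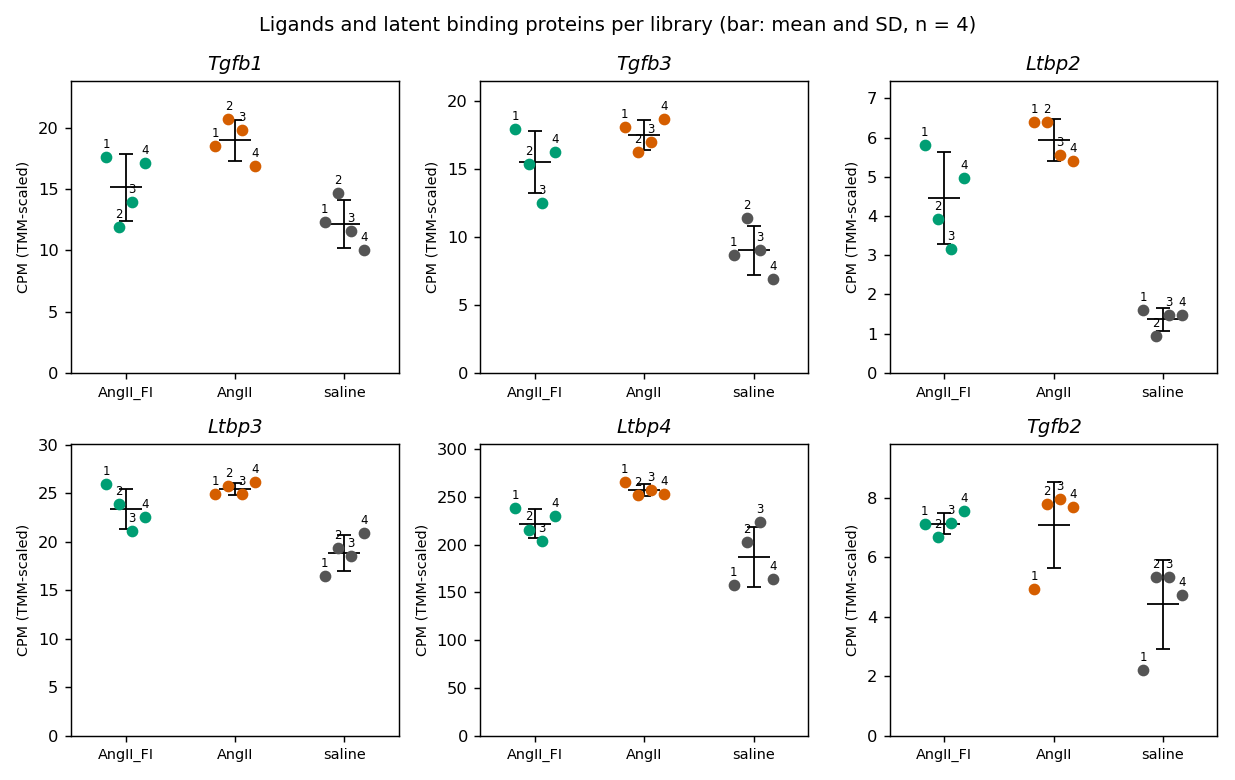
TMM-scaled CPM of the TGF-beta ligands and of the LTBPs that were called, in the AngII_FI, AngII and saline groups; each point is a library with its replicate number, and the bar gives the mean and SD of 4 libraries. The AngII values of Ltbp2 (5.40 to 6.4 CPM) and Tgfb3 (16.3 to 18.7 CPM) lie above every saline value, while AngII 1 of Tgfb2 lies within the saline range.

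Some markers of non-myocytes rose in the same comparison, where 1.57% of all tested genes were called higher and 0.662% lower. Cardiomyocyte markers had 0 of 9 called, with 8 log2 fold changes below 0. Of 9 macrophage markers 5 rose, including C1qb and Cd68, and their summed level was 535 to 624 CPM in AngII and 339 to 442 CPM in saline. Of 9 fibroblast markers 4 rose (Pi16, Lum, Mfap5 and Col15a1), with sums of 1690 to 1790 CPM in AngII and 1210 to 1620 CPM in saline. Endothelial markers summed to 1360 to 1490 CPM in AngII and 963 to 1270 CPM in saline, with 0 of 9 called, and of 8 pericyte and smooth muscle markers 1 rose, Cnn1. Of 6 atrial markers Nppa and Dkk3 rose, and of 6 epicardial and mesothelial markers Upk3b rose, with sums of 2.82 to 5.12 CPM in AngII and 1.33 to 4.37 CPM in saline. No marker of these lists was at 0 in all libraries. The part of these cells in the rise of the ligands and LTBPs was not tested, and in bulk tissue more cells of a type and more RNA per cell cannot be told apart.

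The promoters of the called genes are shown because these genes were higher together. The list of RefSeq promoters used here (GRCm38.p6) held 26 of the 36 members and 4 of the 5 called ones, Tgfb3 being the exception. A missing entry is a limit of that list and does not mean that the gene has no known start site. Each sequence below is the 250 bases before the most upstream listed start, 5′ to 3′ on the gene's strand, and capitals mark matches to CAGACA (a SMAD box), GGCGCC (a BMP-responsive element), TGANTCA (AP-1) or GGGCGG (a GC box) on either strand; the 4 motifs share no overlapping match here.
Tgfb1 (chr7:25686752-25687001, + strand): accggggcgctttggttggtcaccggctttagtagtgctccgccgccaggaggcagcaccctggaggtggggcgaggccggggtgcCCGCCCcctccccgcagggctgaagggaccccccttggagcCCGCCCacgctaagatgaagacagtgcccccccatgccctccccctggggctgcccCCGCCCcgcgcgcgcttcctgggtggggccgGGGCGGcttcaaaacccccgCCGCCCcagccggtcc
Ltbp2 (chr12:84876492-84876741, - strand): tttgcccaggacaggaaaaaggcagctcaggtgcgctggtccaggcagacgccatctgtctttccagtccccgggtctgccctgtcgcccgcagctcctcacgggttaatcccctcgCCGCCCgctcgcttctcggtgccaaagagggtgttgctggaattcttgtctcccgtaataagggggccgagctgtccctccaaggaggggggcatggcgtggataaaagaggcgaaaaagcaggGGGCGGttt
Ltbp3 (chr19:5740650-5740899, + strand): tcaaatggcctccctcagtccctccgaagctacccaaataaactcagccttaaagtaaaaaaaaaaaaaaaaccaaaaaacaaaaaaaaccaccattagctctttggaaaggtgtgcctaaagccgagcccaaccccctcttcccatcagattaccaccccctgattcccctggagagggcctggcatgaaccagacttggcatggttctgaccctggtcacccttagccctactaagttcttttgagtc
Ltbp4 (chr7:27337613-27337862, - strand): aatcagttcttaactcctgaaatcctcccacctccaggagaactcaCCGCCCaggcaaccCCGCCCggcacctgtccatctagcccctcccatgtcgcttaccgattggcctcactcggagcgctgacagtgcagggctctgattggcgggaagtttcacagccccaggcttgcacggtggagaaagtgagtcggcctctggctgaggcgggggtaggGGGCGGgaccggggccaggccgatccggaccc
All capitals are GC boxes, 5 in Tgfb1, 3 in Ltbp4 and 2 in Ltbp2, with 0 in Ltbp3. The GC box stood in 32.7% of 32851 mouse promoters of this length, CAGACA in 17.1%, GGCGCC in 9.59% and TGANTCA in 6.75%. The base composition differed as well, with 75.2% G and C for Tgfb1, 64.4% for Ltbp4, 61.6% for Ltbp2 and 47.2% for Ltbp3. Ltbp4 has 3 listed promoters, of which 1 is shown. The others each hold 1 GGCGCC, with 5 and 7 GC boxes, and have 79.2% G and C. Over all 36 listed promoters of the 26 members, 26 held a GC box, 11 held GGCGCC, 6 held CAGACA and 0 held TGANTCA. A match describes letters only, and no match says nothing of binding outside this window.

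No TGF-beta receptor passed the test. Tgfbr2, the type II receptor, had 56.3, 55.1, 54.5 and 50.8 CPM in AngII and 41.7, 48.0, 48.5 and 36.4 CPM in saline. Its groups were separated, with a log2 fold change of 0.31 ± 0.10 (edgeR adjusted p = 0.119). Tgfbr3, the coreceptor betaglycan, was at -0.12 ± 0.09 and Tgfbr1, the type I receptor, at 0.11 ± 0.18. For Tgfbr1 the library AngII 1 had 11.3 CPM and the other AngII libraries 20.9 to 21.6 CPM, with 14.8 to 19.2 CPM in saline.

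Among the SMADs none passed, and the lowest fold changes were those of Smad9 and Smad3. Smad9, a BMP-branch SMAD present at low level, had 0.923, 1.06, 1.28 and 0.810 CPM in AngII and 2.15, 1.75, 1.98 and 1.34 CPM in saline (log2 fold change -0.83 ± 0.24, edgeR adjusted p = 0.0942). Smad3, a TGF-beta-branch SMAD, had 14.5, 11.3, 8.63 and 10.6 CPM in AngII and 16.9, 15.4, 13.7 and 14.6 CPM in saline (-0.43 ± 0.14, edgeR adjusted p = 0.131). The Smad9 groups were separated and the Smad3 groups overlapped through AngII 1. DESeq2 called Smad9 lower (adjusted p = 0.0402). Smad1, Smad4 and Smad5 had log2 fold changes of 0.00 ± 0.14, 0.01 ± 0.09 and 0.07 ± 0.07. The inhibitory Smad6 and Smad7 were at 0.45 ± 0.17 and 0.13 ± 0.11 (edgeR adjusted p = 0.196 and 0.631).

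Smad2, the other TGF-beta-branch SMAD, showed a pattern that cut across the groups. It had 14.3 CPM in AngII_FI 2, 16.6 and 16.5 CPM in AngII 2 and AngII 3, and 18.5 CPM in saline 2. The other 8 libraries held 6.55 to 9.26 CPM, so the 12 values fell into a higher and a lower set with a gap between them and libraries of each group in both. The log2 fold change between AngII and saline was 0.19 ± 0.36, the largest SE of any SMAD.

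**Figure D2:**
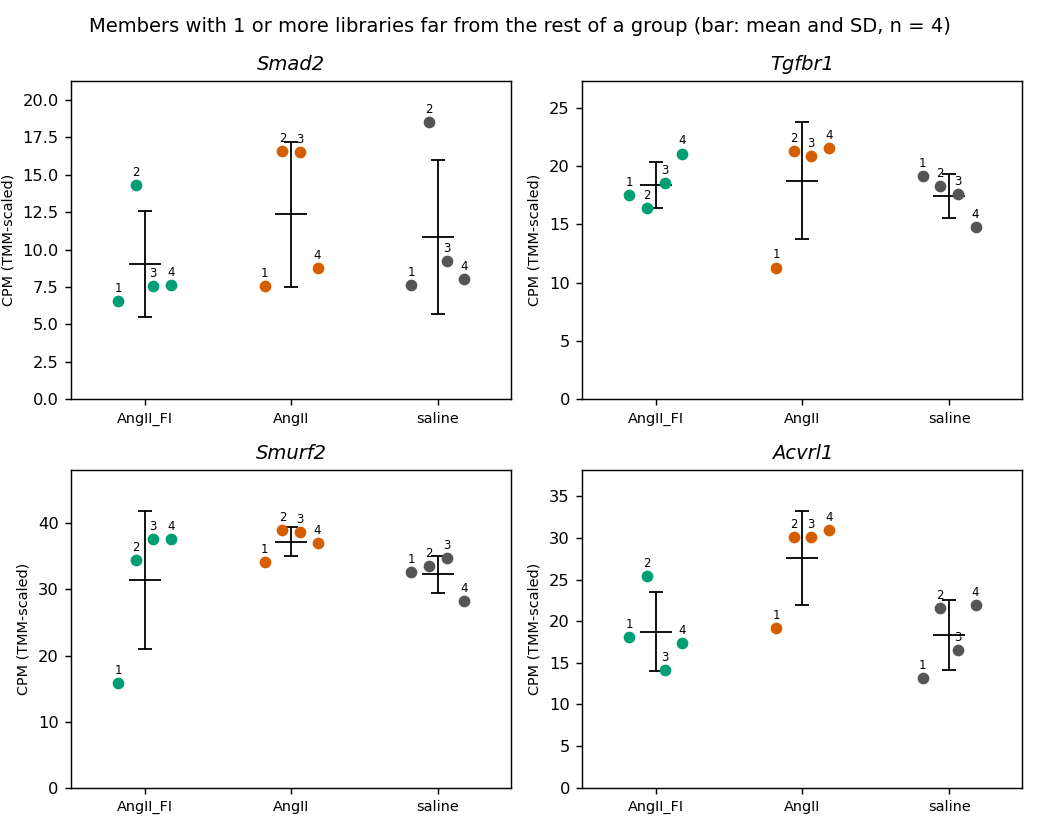
TMM-scaled CPM of Smad2, Tgfbr1, Smurf2 and Acvrl1 in the AngII_FI, AngII and saline groups; each point is a library with its replicate number, and the bar gives the mean and SD of 4 libraries. Smad2 splits into 4 libraries at 14.3 to 18.5 CPM and 8 at 6.55 to 9.26 CPM, and Smurf2 has 1 library at 15.9 CPM among values of 28.2 to 39.0 CPM.

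Of the ligases and corepressors none passed, although the groups of Ski, Skil and Tgif1 were separated. Skil, which encodes SnoN and is itself induced by TGF-beta, had 21.6, 17.8, 17.7 and 17.7 CPM in AngII and 12.7, 13.9, 16.7 and 12.0 CPM in saline (0.44 ± 0.12, edgeR adjusted p = 0.0826). DESeq2 called it higher (adjusted p = 0.0293). Ski was at 0.33 ± 0.11 (edgeR adjusted p = 0.131) and Tgif1 at 0.67 ± 0.27 (edgeR adjusted p = 0.237). The ubiquitin ligases Smurf1 and Smurf2 were at -0.03 ± 0.08 and 0.21 ± 0.21.

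The BMP branch gave no call. Of its ligands, Bmp6 had 20, 30.2, 23.9 and 20 CPM in AngII and 26.4, 34.3, 34.8 and 21.5 CPM in saline (-0.31 ± 0.17, edgeR adjusted p = 0.386). Bmp7 was at -0.76 ± 0.37, Bmp2 at -0.25 ± 0.29 and Bmp4 at 0.15 ± 0.24, all on group means of 2.99 CPM or less in AngII and 2.70 CPM or less in saline. Bmp10, a cardiac BMP made mainly by the right atrium, had 0 counts in all 4 AngII libraries and in 3 of 4 saline libraries, the remaining one, saline 3, holding 8. That library also had 0.385 CPM of the atrial gene Myl7, which was at 0 in the other saline libraries. Its sum over the 6 atrial markers was 137 CPM, within the saline range of 111 to 146 CPM. The source of its Bmp10 counts was not tested. The BMP antagonist Grem1 had 0 counts in all 12 libraries, which allows at most 0.0368 to 0.0454 CPM per library.

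Of the BMP receptors, Bmpr1a and Bmpr2 were at 0.07 ± 0.08 and 0.13 ± 0.11, and Acvr1 at -0.02 ± 0.14. Acvrl1, the endothelial receptor ALK1, had 19.2, 30.1, 30.1 and 31.0 CPM in AngII and 13.2, 21.6, 16.5 and 21.9 CPM in saline. AngII 1 lay within the saline range, and the log2 fold change of 0.59 ± 0.21 did not pass (edgeR adjusted p = 0.174). The Id genes, whose products block basic helix-loop-helix factors, were at 0.15 ± 0.13 (Id1), 0.25 ± 0.14 (Id3) and 0.31 ± 0.51 (Id2), none past the threshold. AngII_FI 3 enters the shared estimate of spread, and without it the Id2 value was 0.31 ± 0.16 (edgeR adjusted p = 0.329). Id1 had 56.4, 59.2, 52.8 and 46.3 CPM in AngII, overlapping 49.0, 52.7, 52.2 and 40.1 CPM in saline.

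AngII_FI against AngII asks what FI changes in the pathway in infused mice. It shares its AngII libraries with the first comparison. For genes that were high in AngII there, a lower value with FI is therefore favoured in advance. By edgeR 0 of the 34 members were higher and 0 lower, as were 0% and 0% of all tested genes. At an unadjusted p under 0.05 there were 3 members (Tgfb1, Tgfbr2 and Acvrl1, all lower) and 1729 of 17376 genes, with 5.46% of all genes higher and 4.49% lower. DESeq2 and limma-voom called 0 members too, and 40 and 0 genes over the whole table. The median log2 fold change of the members was -0.14, with 26 below 0, against 0.02 over all genes. Without AngII_FI 3 it was -0.12, with 27 below 0, against -0.003 over all genes, and 0 members were called, against 0% of all genes higher and 0.00565% (1 gene) lower. The 3 remaining AngII_FI values then lay below AngII for 7 members, against 5.49% of all genes. With all libraries the 4 AngII_FI values lay below the 4 AngII values for Tgfbr2, Ltbp4, Smurf1 and Skil and above them for 0 members, where 3.25% and 2.09% of all genes were separated in these directions.

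Among the genes that angiotensin II raised, Ltbp2 had 5.81, 3.92, 3.15 and 4.96 CPM in AngII_FI libraries 1 to 4, against 5.40 to 6.4 CPM in AngII and 0.946 to 1.60 CPM in saline. Its log2 fold change with FI was -0.41 (95% interval -0.85 to 0.04, edgeR adjusted p = 0.540), and -0.28 without AngII_FI 3. Tgfb3 had 18, 15.4, 12.5 and 16.3 CPM in AngII_FI, with AngII_FI 2 and AngII_FI 3 below every AngII library and the other 2 within their range. Its log2 fold change was -0.17 (95% interval -0.47 to 0.15), and -0.08 without that library. Tgfb1 had 17.6, 11.9, 13.9 and 17.1 CPM in AngII_FI, 2 within the AngII range and 2 within the saline range (-0.32, 95% interval -0.63 to -0.01, edgeR adjusted p = 0.498). Ltbp4 had 239, 216, 204 and 230 CPM in AngII_FI, each below the lowest AngII value of 252 CPM (-0.20, 95% interval -0.42 to 0.03; -0.17 without AngII_FI 3). Ltbp3 had 26.0, 23.9, 21.1 and 22.6 CPM in AngII_FI, overlapping AngII (-0.11, 95% interval -0.30 to 0.08; -0.08 without AngII_FI 3). Without AngII_FI 3 the interval of Tgfb1 was -0.63 to 0.05, so all 5 intervals then held 0.

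**Figure D3:**
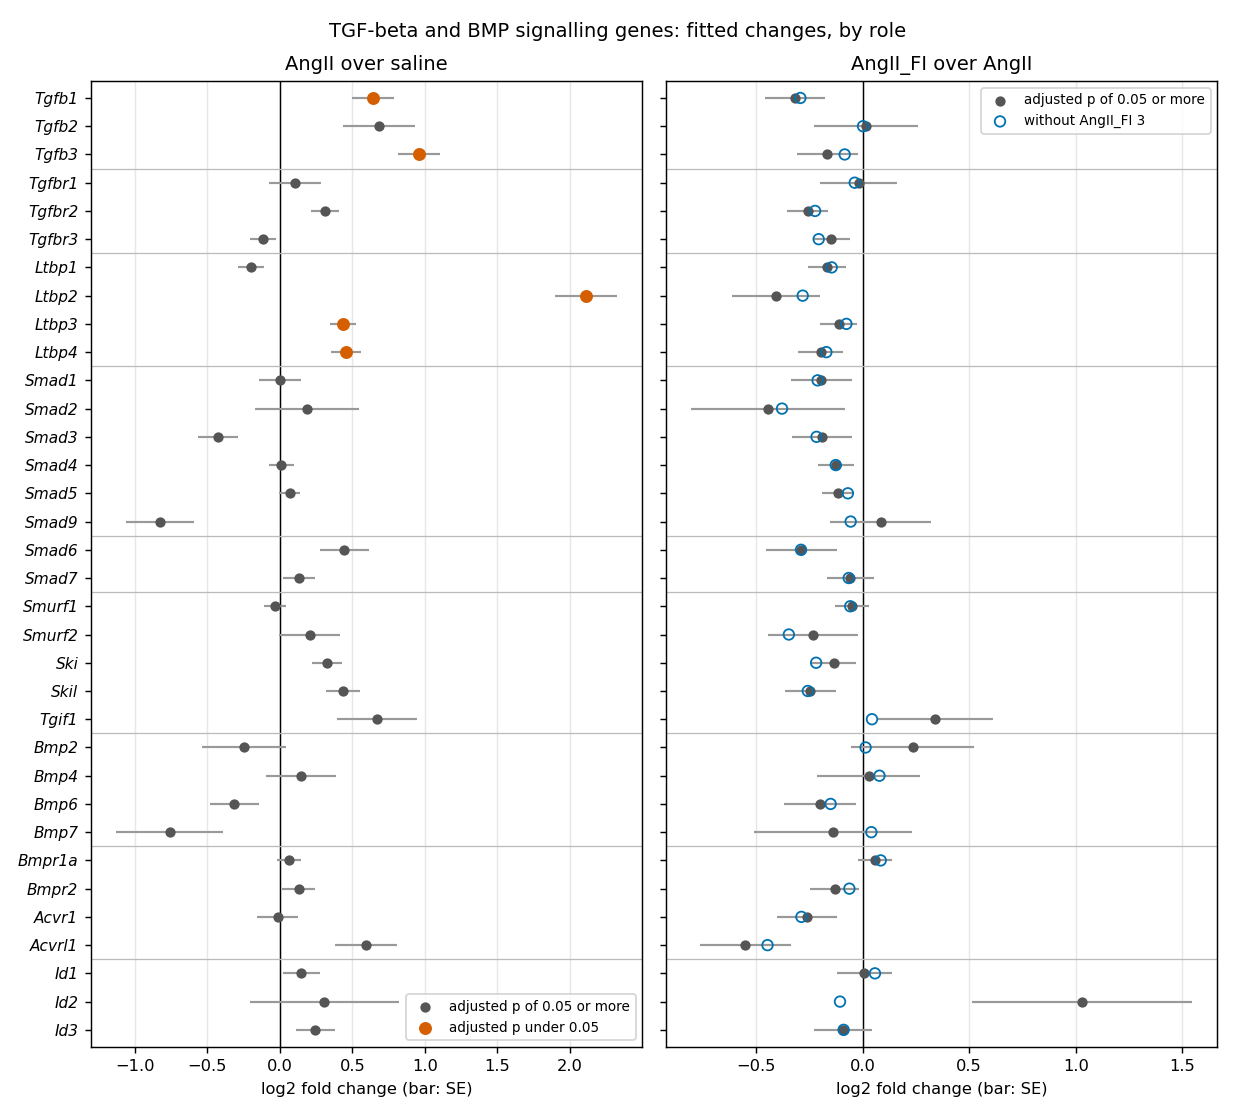
Log2 fold changes of the 34 tested members by role, AngII over saline on the left and AngII_FI over AngII on the right, with standard errors; open circles are refits without AngII_FI 3. On the left 5 ligand and LTBP genes pass the threshold, at 0.44 to 2.11, and on the right none passes; the log2 fold change of Id2 is 1.03 with AngII_FI 3 and -0.11 without it.

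Of the receptors, Tgfbr2 had 46.7, 49.5, 40.5 and 43.3 CPM in AngII_FI, all below the AngII minimum of 50.8 CPM, with a log2 fold change of -0.26 (95% interval -0.47 to -0.05, edgeR adjusted p = 0.440). Without AngII_FI 3 it was -0.22, and its interval of -0.447 to 0.002 held 0. Acvrl1 had 18.1, 25.4, 14.1 and 17.4 CPM in AngII_FI, against 19.2 to 31.0 CPM in AngII (-0.55, 95% interval -1.01 to -0.09, edgeR adjusted p = 0.442; -0.45 without AngII_FI 3, 95% interval -0.91 to 0.02). All 9 endothelial markers had log2 fold changes below 0 in this comparison, 0 of them called, with sums of 1450, 1130, 1010 and 1340 CPM in AngII_FI and 1360 to 1490 CPM in AngII. Their part in the Acvrl1 values was not tested. The other receptors were at -0.26 to 0.06, and at -0.29 to 0.09 without AngII_FI 3.

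The SMADs were at -0.44 (Smad2) to 0.09 (Smad9), and at -0.38 and -0.06 for these 2 without AngII_FI 3, none called, and Smad3 had 10.0, 10.2, 10.1 and 8.91 CPM in AngII_FI against 8.63 to 14.5 CPM in AngII (-0.19 ± 0.14 with and -0.22 ± 0.15 without AngII_FI 3). Smurf2 had 15.9 CPM in AngII_FI 1 and 34.4 to 37.7 CPM in the other AngII_FI libraries, against 34.2 to 39.0 CPM in AngII. Skil had 16.5, 13.6, 15.6 and 16.9 CPM in AngII_FI, below the AngII minimum of 17.7 CPM (-0.25 ± 0.12, edgeR adjusted p = 0.517; -0.26 ± 0.13 without AngII_FI 3). Id1 was at 0.01 ± 0.13 and Id3 at -0.09 ± 0.14, and without AngII_FI 3 at 0.06 ± 0.13 and -0.09 ± 0.15.

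Id2 and 3 other members were highest in the library with hepatocyte transcripts. Id2 had 33.9 CPM in AngII_FI 3 and 3.78 to 7.28 CPM in the other 11 libraries, and its log2 fold change with FI was 1.03 ± 0.52 with that library and -0.11 ± 0.17 without it. Tgif1 had 6.63 CPM there and 1.83 to 4.29 CPM elsewhere (0.34 ± 0.27 with and 0.04 ± 0.23 without it). Bmp2 had 1.44 CPM there and 0.544 to 1.16 CPM elsewhere (0.24 ± 0.29 with and 0.01 ± 0.30 without it). Bmp10 had 52 counts in AngII_FI 3, or 0.668 CPM, and 0 in the other 3 AngII_FI libraries, while Sln and Myl7 were at 0 in AngII_FI 3. The source of these Bmp10 counts was not tested. These 4 were the members for which AngII_FI 3 lay above all other libraries, while Ltbp1, Smad5, Bmp6 and Bmpr2 lay below them there. The share of all genes at such places was not computed, so these counts do not set the members apart from other genes.

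**Figure D4:**
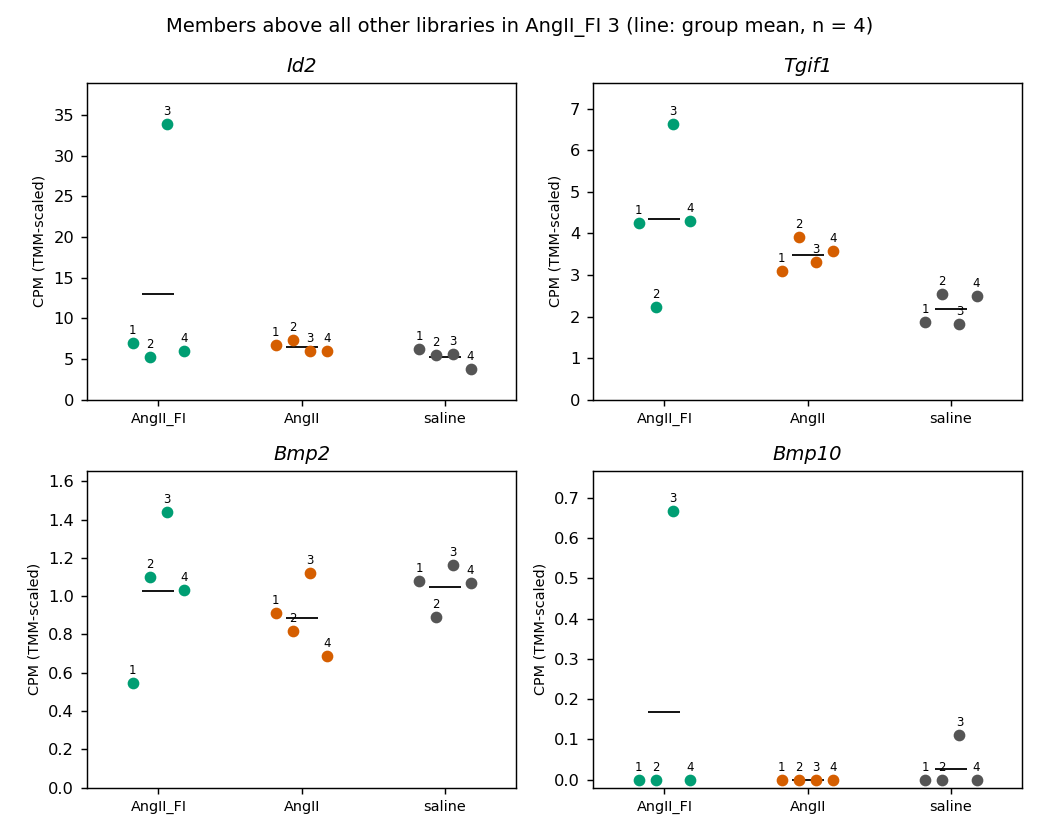
TMM-scaled CPM of Id2, Tgif1, Bmp2 and Bmp10 in the AngII_FI, AngII and saline groups; each point is a library with its replicate number, and the line is the group mean. AngII_FI 3, the library with 24300 CPM of hepatocyte markers, is the highest of the 12 libraries for all 4 genes, at 33.9 CPM for Id2 and 0.668 CPM for Bmp10.

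AngII_FI against saline sets both treatments together against saline with vehicle. This comparison shares its AngII_FI libraries with the previous one and its saline libraries with the first. Ltbp2 and Tgfb3 were higher in AngII_FI ventricles, with log2 fold changes of 1.70 ± 0.21 and 0.79 ± 0.14 (edgeR adjusted p = 0.00481 and 0.0291), and 0 members were lower. Of all tested genes 0.719% were called higher and 0.259% lower. Both genes, and no other member, passed without AngII_FI 3 as well, at 1.83 and 0.87, where 0.932% of all genes were called higher and 0.311% lower. With each library left out in turn Ltbp2 passed in all 12 fits and Tgfb3 in 5, those without saline 2, AngII 1, AngII 3, AngII_FI 2 or AngII_FI 3. Tgfb3 also lost this call with no filter on low counts (edgeR adjusted p = 0.0566) and with only the compared groups in the fit (0.098).

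Members that did not pass there lay on both sides of 0. Tgfb2 had 7.12, 6.68, 7.14 and 7.55 CPM in AngII_FI, above all saline values (0.70 ± 0.25, edgeR adjusted p = 0.176), and Tgfb1 was at 0.33 ± 0.14 (edgeR adjusted p = 0.268). Smad3 lay below all saline values (-0.62 ± 0.14, edgeR adjusted p = 0.0583), and DESeq2 called it lower (adjusted p = 0.00441). Ltbp1 had 31.9, 27.3, 26.1 and 27.4 CPM in AngII_FI, against 35.0 to 40.0 CPM in saline (-0.37 ± 0.09, edgeR adjusted p = 0.0708), and DESeq2 called it lower (adjusted p = 0.0102). DESeq2 also called Ltbp3 (0.32) and Tgif1 (1.01) higher, at adjusted p = 0.0337 and 0.0177. Tgif1 was highest in AngII_FI 3, without which edgeR gave 0.71 (adjusted p = 0.156), and DESeq2 was not run without that library. Without it edgeR gave 0.68 for Tgfb2, 0.35 for Tgfb1, -0.65 for Smad3, -0.35 for Ltbp1 and 0.36 for Ltbp3, none called. The 4 AngII_FI values lay above the saline values for Tgfb2, Tgfb3, Ltbp2 and Ltbp3 and below them for Tgfbr3, Ltbp1 and Smad3, where 4.6% and 4.62% of all genes were separated in these directions. Without AngII_FI 3 the remaining values lay above saline for 4 members and below for 4, against 7.78% and 6.87% of all genes.

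Levels can be compared between genes per length, as CPM per kilobase of annotated exon. In saline ventricles Tgfb3 and Tgfb1 were at 2.67 ± 0.54 and 2.41 ± 0.38 CPM per kilobase (SD, n = 4), closer than their spread, and Tgfb2 at 0.76 ± 0.26. In AngII ventricles Tgfb3 was at 5.18 ± 0.31 and Tgfb1 at 3.76 ± 0.33, a gap wider than either SD, and in AngII_FI ventricles at 4.59 ± 0.68 and 3.00 ± 0.53. Ltbp4 was the highest LTBP in every group, at 34.4 ± 2.39 in AngII_FI, 39.7 ± 0.98 in AngII and 29.0 ± 4.89 in saline. Ltbp2 was the lowest, at 0.55 ± 0.14, 0.73 ± 0.07 and 0.17 ± 0.04 in the same groups. The rise of Ltbp2 thus left it below Ltbp1, at 2.98 ± 0.25 in AngII, and Ltbp3, at 2.81 ± 0.07.

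Among BMP ligands in saline Bmp6 was at 7.51 ± 1.65 CPM per kilobase and Bmp4 at 1.2 ± 0.33, while Bmp7 and Bmp2 were at 0.30 ± 0.11 and 0.30 ± 0.03 and did not differ beyond their spread. The receptor order was Bmpr1a at 9.91 ± 0.94, then Tgfbr3 (5.57 ± 0.40) and Tgfbr2 (5.33 ± 0.70), Acvrl1 (4.29 ± 0.99) and Bmpr2 (4.01 ± 0.22), Tgfbr1 (2.67 ± 0.29) and Acvr1 (1.98 ± 0.29). Tgfbr3 and Tgfbr2, and Acvrl1 and Bmpr2, were neighbours closer than their spread. Among the SMADs the shared Smad4 was highest, at 6.99 ± 0.20, followed by Smad5 (4.70 ± 0.23), and Smad9 was lowest, at 0.34 ± 0.07. Id1 (41.8 ± 5.04) and Id3 (23.4 ± 3.66) were far above Id2 (2.15 ± 0.42).

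**Figure D5:**
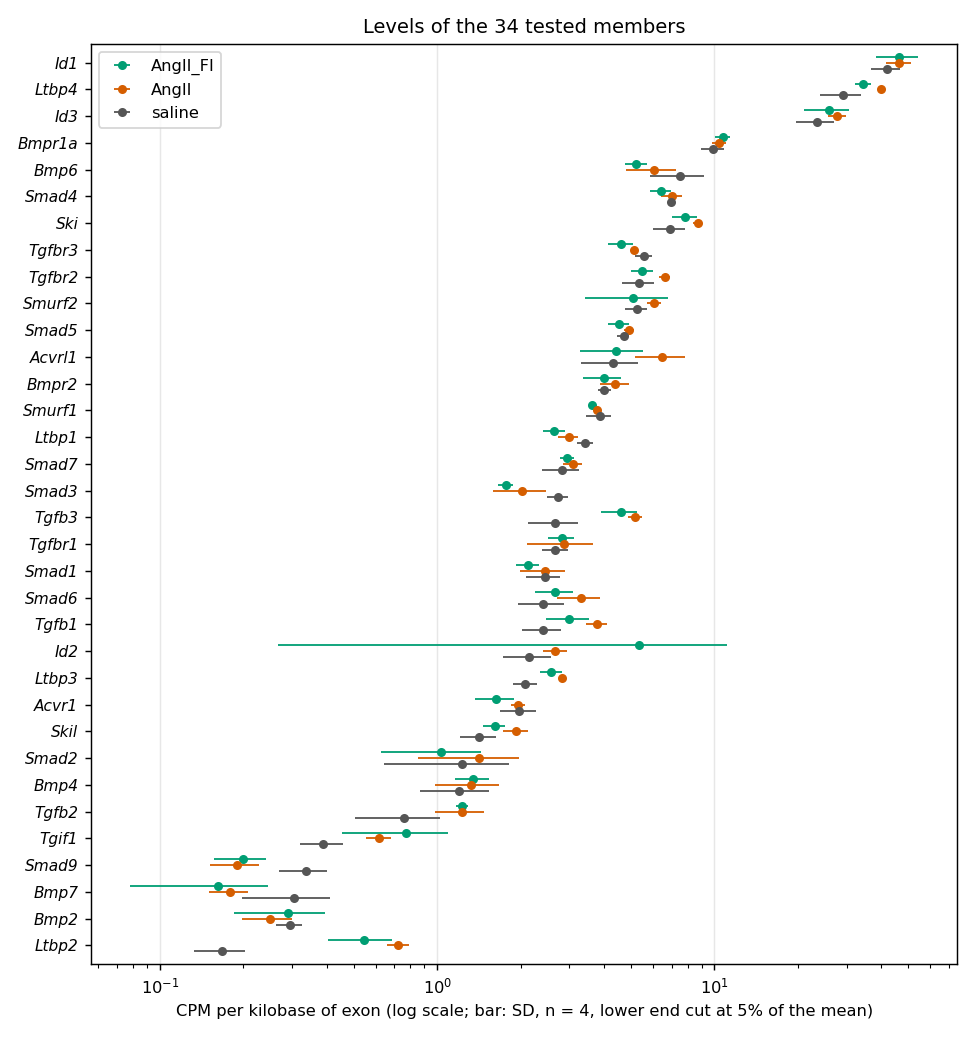
Levels of the 34 tested members as CPM per kilobase of exon on a log axis, ordered by the saline mean, with the mean and SD of 4 libraries in the AngII_FI, AngII and saline groups. Id1 (41.8 in saline) and Ltbp4 (29.0) are at the top, and Ltbp2 is lowest in saline, at 0.17, against 0.55 in AngII_FI and 0.73 in AngII.

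Other genes of the pathway were taken from fixed lists, chosen with earlier results of these data known. Of 15 genes for latent TGF-beta storage and activation, all tested, 4 rose with angiotensin II and 0 fell, with a median of 0.53, where 1.57% of all tested genes were called higher and 0.662% lower. They were Thbs1, a matricellular activator of latent TGF-beta (1.62 on the log2 scale, edgeR adjusted p = 0.00712), the proteoglycan Bgn (0.92, 0.00280), the microfibril protein Fbn1 (0.86, 0.0385) and Emilin1 (0.53, 0.0179), which limits processing of the TGF-beta precursor. Of 16 TGF-beta response genes 8 rose and 0 fell, with a median of 0.98. They were Cilp (1.92), Postn (1.8), Thbs1, which stands on both lists, Lox (1.33), Ccn2 (1.2), Col1a1 (0.98), Col3a1 (0.98) and Pmepa1 (0.76), a TGF-beta-induced inhibitor of the pathway.

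Of 11 other BMP antagonists and modulators 8 were tested, and 1 rose, the secreted antagonist Nbl1 (0.96, edgeR adjusted p = 0.0173). Of 22 other components of both branches 18 were tested and 1 rose, the pseudoreceptor Bambi (0.61, edgeR adjusted p = 0.0285). Bambi was also the 1 gene called among 7 tested of 9 BMP response genes. It was called in AngII_FI against saline as well (0.83, edgeR adjusted p = 0.0127), as was Nbl1 (0.82, edgeR adjusted p = 0.0469). In that comparison 5 of the 16 response genes (Cilp, Postn, Ccn2, Col1a1 and Tgfbi) and 1 of the 15 storage genes (Bgn) were higher, and 0 were lower, against 0.719% and 0.259% of all tested genes. Without AngII_FI 3 these counts were also 5 and 1. With FI added, 0 genes of any of these lists were called. The median of the response genes was then -0.37, with 10 of 16 below 0, and that of the storage genes -0.30, with 14 of 15 below 0, against 0.02 over all genes. Without AngII_FI 3 these medians were -0.44 and -0.29. The AngII libraries are shared with the first comparison, where both lists had medians above 0, which favours such falls in advance.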

How the data were processed

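RNA of mouse ventricles was sequenced in 12 libraries. Per the labels' protocols, the extraction reagent is TRIzol in the treatment text but an RNeasy kit in the extraction text, and a SMARTER kit made the libraries. The authors deposited raw counts per gene, 1 column per library, with 13 unnamed empty columns. HISAT, featureCounts 1.5.0-p3, DESeq 1.8.3 and build GRCm38 are named per the submitters' processing notes; the strand setting is not given in the sources used here. Exons of 11 members overlap another gene model, so their values are uncertain where the partner is expressed, as Txndc5 is, antisense to Bmp6; not all partners are reported here.

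Groups came from the treatment labels. Genes passing filterByExpr (17376) were scaled by TMM and tested by edgeR 4.0.16 under R 4.3.3 with its quasi-likelihood test, all 12 libraries and 3 group means entering a single fit, with Benjamini-Hochberg adjustment over all tested genes. The procedure was also run on simulated counts, which held no library like AngII_FI 3, and no result here rests on that run. SE is the log2 fold change over the square root of F, with 12.1 degrees of freedom for 95% intervals. Exon lengths, positions and overlaps came from GENCODE M21. Alternatives were DESeq2 1.42.0, limma-voom (limma 3.58.1), other scalings, filters and designs, and each library left out. The text names all members, every called gene of the other pathway lists, and genes of the marker lists. The members and lists were chosen with earlier results of these data known. Libraries are labelled as separate samples; whether each is 1 mouse is not stated, and then p-values measure the spread between samples.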

Additional observations from a re-analysis of the deposited data

Results flagged for a closer look

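Within groups of 4 libraries, 11 of 104 sets of member values held 1 library far from the other 3, with a gap to its nearest neighbour above Dixon's critical share of the group's range. Chance flags about 1 in 20 groups, and over all tested genes 7.6% of such sets were flagged. That share leaves out untested genes, whereas the 11 flags include those of Bmp10, which was not tested, so the 2 shares cover unlike sets. By group, 10.3% of all tested genes were flagged in AngII_FI, 6.27% in AngII and 6.21% in saline. AngII_FI 3 was the distant library for 6.54% of all tested genes, and AngII 1 for 1.5%.

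AngII 1 was the distant library for Tgfb2 (gap 0.911 of the range, low at 4.94 CPM), Tgfbr1 (0.934, low at 11.3 CPM), Acvrl1 (0.924, low at 19.2 CPM) and Skil (0.968, high at 21.6 CPM). Smad2 was flagged in AngII_FI through replicate 2 (0.859, high at 14.3 CPM) and in saline through replicate 2 (0.849, high at 18.5 CPM). Smad3 was flagged in AngII_FI through replicate 4 (0.859, low at 8.91 CPM), and Smurf2 through AngII_FI 1 (0.847, low at 15.9 CPM).

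Id2 was flagged in AngII_FI through replicate 3 (0.941, high at 33.9 CPM), the library with 24300 CPM of hepatocyte markers. Bmp10 was flagged in AngII_FI through replicate 3 (1.0, 52 counts) and in saline through replicate 3 (1.0, 8 counts), the other libraries of both groups being at 0. The part of hepatocyte transcripts in the Id2 and Bmp10 values was not tested.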

How the results depend on the processing

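Ltbp2 kept its call in both comparisons with saline under every alternative run. The counts of called members were 5 in AngII against saline, 0 in AngII_FI against AngII and 2 in AngII_FI against saline. DESeq2 gave 7, 0 and 6 members, and 1045, 40 and 799 of all genes, against 388, 0 and 170 by edgeR. With no filter on low counts there were 3, 0 and 1 members (190 genes in the first comparison and 64 in the last). A filter of 1 CPM in 4 libraries gave 261 genes for AngII_FI against saline. With only the compared groups in the fit that comparison gave 1 member and 48 genes. Replicate numbers did not pair the libraries (correlations of deviations -0.057 to 0.105), and with a replicate block there were 2, 0 and 1 members and 124, 0 and 61 genes. The block ended the calls of Tgfb1 (edgeR adjusted p = 0.0966), Ltbp3 (0.0727) and Ltbp4 (0.101) for AngII and of Tgfb3 (0.0772) for AngII_FI, each against saline. Library totals ended that of Ltbp4 (0.0691). Leaving out 1 library gave 2 to 5, 0 and 1 to 3 members and 90 to 683, 0 to 1 and 41 to 220 genes. The cause was not tested.

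Signs turned only for log2 fold changes that were not called. For AngII against saline Smad1 was at -0.004 by DESeq2, -0.002 by limma-voom, -0.004 with size factors, -0.001 without a filter and -0.005 with the replicate block, and Acvr1 at 0.005 with library totals and 0 with the block. For AngII_FI against AngII, limma-voom gave Tgfbr1 0.027 and Id1 -0.001, library totals gave Tgfb2 -0.03, Bmp4 -0.023 and Id1 -0.055, and the block gave Tgfbr1 0.003. For AngII_FI against saline, library totals gave Acvrl1 -0.007. With 1 library left out the sign turned, for AngII against saline, Acvr1 (-0.104 to 0.052), Bmp4 (-0.010 to 0.310), Smad1 (-0.102 to 0.114), Smad4 (-0.042 to 0.056) and Smurf1 (-0.075 to 0.018); for AngII_FI against AngII, Bmp4 (-0.135 to 0.145), Bmp7 (-0.484 to 0.051), Id1 (-0.101 to 0.076), Id2 (-0.106 to 1.295), Id3 (-0.208 to 0.003), Smad9 (-0.056 to 0.214), Tgfb2 (-0.124 to 0.076) and Tgfbr1 (-0.198 to 0.048); for AngII_FI against saline, Acvrl1 (-0.134 to 0.145), Bmp2 (-0.237 to 0.200), Bmpr2 (-0.103 to 0.065), Smad2 (-0.565 to 0.128), Smurf2 (-0.143 to 0.194) and Tgfbr2 (-0.024 to 0.108). Depth limits Bmp10 and Grem1, at or near 0 counts.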

Other observations

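Some pathway genes outside the 36 members were present almost only in AngII_FI 3; they were chosen after their values were seen. Hamp, which encodes the liver hormone hepcidin and is a BMP target, had 90.1 CPM there and at most 0.0491 CPM in the other 11 libraries, and Hamp2 had 41.1 CPM there and at most 0.167 CPM elsewhere. The ligand Gdf2 (BMP9) had 1.03 CPM there and at most 0.172 CPM elsewhere. Bmp5 had 3.52 CPM there and 0.0756 to 1.63 CPM elsewhere.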
